A study of Mus musculus with 6 samples.

Results

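The genes described here encode the subunits of the Polycomb and trithorax machinery, the enzymes that place, read and remove H3K27me3 and H3K4me3. A list of 45 such genes was fixed by name, and 45 of them are in the RefSeq annotation of GRCm38, out of 21887 protein-coding genes of the assembled chromosomes. They were followed in cultured neural stem and progenitor cells from the E13.5 mouse forebrain, grown with EGF and FGF, after 24 h with 10 mM crotonate or with water. Crotonate is a short-chain fatty acid salt that cells turn into crotonyl-CoA, the donor for histone crotonylation. The labels name no strain, transgene or sex, and both groups received the same culture medium. CUT&Tag, in which an antibody guides a transposase to cut beside a histone mark, was made for H3K4me3, H3K27me3 and IgG in each treatment, as 1 library each. The peak lists of the 4 histone mark libraries are described below. Both IgG libraries were not analysed here.

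As background, PRC2 (Polycomb repressive complex) methylates H3K27, and PRC1 binds that mark or arrives by other routes and ubiquitylates H2A. The COMPASS complexes, which carry the MLL and SET1 methyltransferases, methylate H3K4, and demethylases of the KDM5 and KDM6 families remove these marks. In neural progenitors Polycomb complexes hold developmental genes silent and are known for their role in self-renewal and in the timing of neuron and glia production. A promoter that carries both marks is called bivalent.

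A mark was assigned to a gene where a peak overlapped the gene, or 2 kb on either side of its ends, by at least 1 bp. With 1 library a group, the differences below stand without a check against replicates, and p-values cannot be had. The H3K4me3 lists held 16007 peaks after crotonate and 13221 after water, and the H3K27me3 lists 15879 after crotonate and 7643 after water. From the steps and floors of the deposited signal, the estimated number of fragments after crotonate was 1.16 times that after water for H3K4me3 and 0.811 times for H3K27me3, on a background 1.80 times as deep. Number and length of called peaks move with depth, so each count is set beside the same count over all genes. Among marker genes, 11 of 11 for neural stem and progenitor cells had H3K4me3 in both treatments and 0 of 4 for microglia had it in either. The fibroblast list (Col1a1, Col1a2, Dcn and Lum) had 1 of 4 after crotonate and 0 of 4 after water, the vessel list 1 of 3 in each, the neuron list 3 of 4 in each, and the astrocyte and oligodendrocyte list 2 of 4 after crotonate and 1 of 4 after water. In bulk cells, a mark in fewer cells and a weaker mark in every cell cannot be told apart.

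Promoter sequences of 6 members are shown, Suz12 for the PRC2 genes and the others because the peaks described below differ at or beside them. At Bmi1 and Phf1, as at Pcgf2, the start lay in an H3K4me3 peak after crotonate only. The nearest water peak lay 35 bp from the start at Bmi1, 123 bp at Pcgf2 and 4983 bp at Phf1. The share of all genes with such a start was not counted. At Pcgf3 H3K27me3 lay 1954 bp upstream after crotonate only. At Pcgf5 it lay 1179 bp upstream after crotonate and 751 bp after water. At Rnf2 the H3K4me3 peak reached farther into the gene after crotonate. Suz12 stands for the 11 PRC2 genes among the members, which had no H3K27me3. Each run is the 250 bases before the annotated start, 5′ to 3′ on the strand of the gene, from RefSeq GRCm38.p6. Capitals mark CG dinucleotides, the sites that CXXC-domain proteins bind when unmethylated. The windows are chr2:18676768-18677017 (plus strand), chr5:108461009-108461258 (plus), chr19:36348079-36348328 (plus), chr17:26932877-26933126 (plus), chr1:151500992-151501241 (minus) and chr11:79992856-79993105 (plus).
Bmi1: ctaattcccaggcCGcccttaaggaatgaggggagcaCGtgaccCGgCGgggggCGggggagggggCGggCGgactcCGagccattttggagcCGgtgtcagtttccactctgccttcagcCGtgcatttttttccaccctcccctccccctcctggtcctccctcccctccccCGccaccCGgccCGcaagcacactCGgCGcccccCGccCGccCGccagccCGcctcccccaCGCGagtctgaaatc
Pcgf3: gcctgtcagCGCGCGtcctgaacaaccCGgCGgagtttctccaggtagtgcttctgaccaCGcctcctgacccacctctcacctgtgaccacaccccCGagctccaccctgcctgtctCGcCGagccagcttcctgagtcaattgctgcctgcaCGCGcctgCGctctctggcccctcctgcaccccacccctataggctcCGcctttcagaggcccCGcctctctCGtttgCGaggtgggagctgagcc
Pcgf5: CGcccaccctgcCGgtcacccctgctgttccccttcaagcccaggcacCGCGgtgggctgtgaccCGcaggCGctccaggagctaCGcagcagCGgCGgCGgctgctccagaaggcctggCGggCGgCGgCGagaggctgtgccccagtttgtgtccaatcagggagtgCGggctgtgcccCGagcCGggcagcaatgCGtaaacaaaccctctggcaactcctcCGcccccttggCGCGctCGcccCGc
Phf1: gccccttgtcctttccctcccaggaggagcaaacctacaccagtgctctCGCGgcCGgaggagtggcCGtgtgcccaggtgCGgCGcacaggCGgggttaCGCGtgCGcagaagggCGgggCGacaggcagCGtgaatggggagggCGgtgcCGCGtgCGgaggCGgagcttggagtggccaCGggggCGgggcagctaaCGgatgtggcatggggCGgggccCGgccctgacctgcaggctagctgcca
Rnf2: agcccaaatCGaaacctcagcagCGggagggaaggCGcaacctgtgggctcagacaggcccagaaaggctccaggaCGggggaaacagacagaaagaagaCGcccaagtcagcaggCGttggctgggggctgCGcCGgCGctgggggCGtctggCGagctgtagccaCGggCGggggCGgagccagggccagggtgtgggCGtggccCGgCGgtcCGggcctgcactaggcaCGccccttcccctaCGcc
Suz12: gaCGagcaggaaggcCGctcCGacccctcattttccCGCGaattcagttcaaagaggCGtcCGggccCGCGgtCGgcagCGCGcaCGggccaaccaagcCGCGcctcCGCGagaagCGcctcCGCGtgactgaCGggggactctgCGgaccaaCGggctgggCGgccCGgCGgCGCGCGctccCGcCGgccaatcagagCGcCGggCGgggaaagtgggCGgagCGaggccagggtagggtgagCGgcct
The windows hold 21 CG at Bmi1, 16 at Pcgf3, 23 at Pcgf5, 23 at Phf1, 20 at Rnf2 and 37 at Suz12. In the table of RefSeq starts, 35 of the 45 members were found, with 48 starts. These starts had a median of 20 CG in the window, against 16 for the 12999 starts of protein-coding genes with H3K4me3 in both treatments and 10 for all 21263 starts. The GC box GGGCGG was found, on either strand, at 66.7% of the member starts, 58.4% of the starts with H3K4me3 and 42.6% of all starts. The E2F sequence TTTCCCGC lay at 4.17% of member starts (Suz12 and Phf19), 1.68% of the starts with H3K4me3 and 1.19% of all starts. The YY1 sequence AAGATGGC lay at 2.08% of member starts (Phf19), 1.96% of the starts with H3K4me3 and 1.5% of all starts. An NRF1-type sequence, also searched for, lay at 9 of the 48 member starts (18.8%). It lay at 8.02% of the starts with H3K4me3 and 5.18% of all starts. Overlapping windows of Dpy30 were counted as separate starts among these 9. The GC box, the E2F sequence and the NRF1-type sequence contain CG, so their matches are not independent of the CG count. Among the 35 members, the CG-richest start of the 4 with H3K27me3 had a median of 18.5 CG (5 to 28). That of the 31 without had 23.0 (8 to 48). Pcgf1 and Cbx2, which also carried H3K27me3, had no start in that table.

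The first comparison asked whether crotonate altered H3K4me3 at these genes. All 45 members carried H3K4me3 in both treatments, and 0 were called after crotonate only and 0 after water only. Over all protein-coding genes, 61.5% carried it after crotonate and 57.4% after water, 4.11% after crotonate only and 0.0320% after water only. Within 2 kb of a gene end the mark lay at 42 of 45 members in each treatment, against 58.2% of all genes after crotonate and 54.1% after water. At the ends, 0 members were called after crotonate only (4.18% of all genes) and 0 after water only (0.0503%). The difference was in the length of the peaks. The widest H3K4me3 peak of a member measured 1032 to 7798 bp after crotonate, with a median of 2885 bp, and 809 to 4948 bp after water, with a median of 2216 bp. It was longer after crotonate at 41 of 45 members, against 95.4% of the 12552 genes with H3K4me3 in both lists. The median ratio of lengths, crotonate over water, was 1.19 for the members and 1.25 for all genes. The median ratio of the members was thus below that of all genes, and the part of depth in it was not tested.

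**Figure D1:**
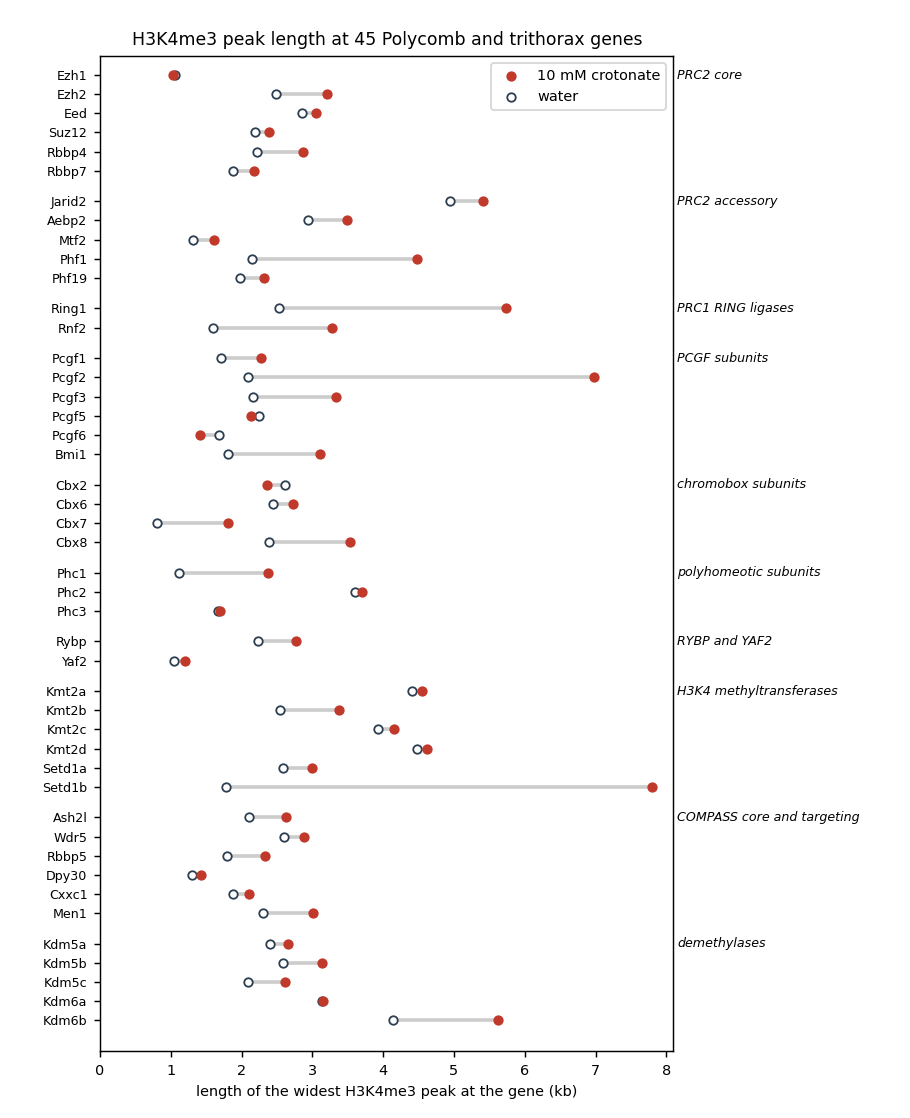
Length in kb of the widest H3K4me3 peak at each of the 45 genes after 10 mM crotonate (filled points) and after water (open points), ordered by the role of the product. Points are single libraries, without error; 41 genes have the filled point to the right, and Setd1b (7.80 kb after crotonate, 1.77 kb after water) and Pcgf2 (6.98 kb after crotonate, 2.10 kb after water) have the longest lines.

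**Figure D2:**
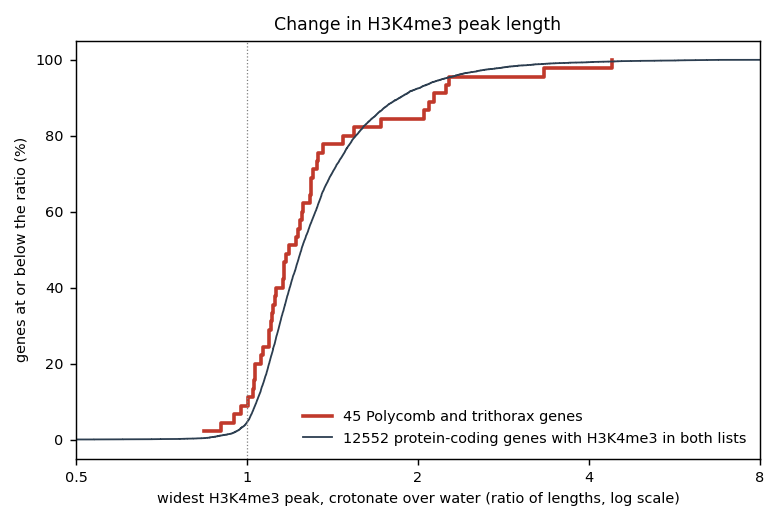
Cumulative share of genes (%) by the ratio of the widest H3K4me3 peak, crotonate over water, on a log axis, for the 45 members and for the 12552 genes with H3K4me3 in both lists. The median is 1.19 for the members and 1.25 for all genes, and the dotted line marks equal length.

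The PRC2 core genes had a median ratio of 1.13, against 1.25 for all genes. The peak of Ezh2, the methyltransferase of dividing progenitors, spanned 3.20 kb after crotonate and 2.48 kb after water. Its paralogue Ezh1 is used more in non-dividing cells. By widest H3K4me3 peak Ezh1 was among the shortest members, with 1.03 kb after crotonate and 1.06 kb after water. Eed, whose product reads H3K27me3 and stimulates the enzyme, had 3.05 kb after crotonate and 2.86 kb after water, and the scaffold gene Suz12 had 2.39 kb after crotonate and 2.19 kb after water. The histone-binding subunit genes Rbbp4 and Rbbp7 had 2871 and 2174 bp after crotonate and 2216 and 1875 bp after water. The ratios of these 6 genes ran from 0.974 to 1.30, and 5 of the 6 were above 1. Ezh2 (1.29) and Rbbp4 (1.30) lay above the median of all genes, and the others lay below it.

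Among the PRC2 accessory genes, Jarid2 carried the longest H3K4me3 peak of all members after water, 4.95 kb, and had 5.41 kb after crotonate. JARID2 and AEBP2 mark a form of PRC2 that recognises ubiquitylated H2A, and Aebp2 had 3.48 kb after crotonate and 2.94 kb after water. Mtf2, Phf1 and Phf19 encode the Polycomb-like proteins, which bring PRC2 to CG-rich DNA. Mtf2 measured 1.61 kb after crotonate and 1.31 kb after water, and Phf19 measured 2.31 kb after crotonate and 1.97 kb after water. Phf1 differed more. Its start on chromosome 17, at 26933127, lay in a peak of 0.974 kb after crotonate (26932769 to 26933742, authors' fold enrichment 11.7), and the nearest H3K4me3 peak after water lay 4983 bp away. This nearest peak, over the neighbour Cuta, is also the widest one assigned to Phf1, with 4.47 kb after crotonate and 2.14 kb after water. A second new peak of 0.403 kb lay inside Phf1 after crotonate.

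The RING ligase genes, whose products ubiquitylate H2A in every form of PRC1, both had ratios of widest peaks above those of most genes. Rnf2 had a peak of 3.27 kb after crotonate and 1.60 kb after water, and the added length lay inside the gene: its reach downstream of the start was 2752 bp after crotonate and 1128 bp after water, while the upstream reach was 521 bp after crotonate and 467 bp after water. At Ring1 the peak measured 5.74 kb after crotonate and 2.53 kb after water, and the added length lay on the other side of the start, with an upstream reach of 4717 bp after crotonate and 1749 bp after water. It had taken in a second water peak beyond the gene and overlaps the neighbours H2-Ke6 and Slc39a7. Over Ring1 and its windows alone the covered length was 3019 bp after crotonate and 2532 bp after water. The ratios of widest peaks were 2.05 at Rnf2 and 2.27 at Ring1, against an upper quartile of 1.48 over all genes. Measured from first to last water peak, the ratio at Ring1 was 1.33.

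The PCGF genes, whose products decide which form of PRC1 is built, varied widely. BMI1 and PCGF2 belong to the canonical form, which binds H3K27me3, and the other members to variant forms. At Pcgf2 a single peak of 6.98 kb after crotonate covered 3 water peaks of 0.664, 1.61 and 2.10 kb, the last of which reaches the neighbour Psmb3. Its annotated start at 97699648 lay in that peak after crotonate and 123 bp from the nearest peak after water. By covered length in the gene and its windows the ratio at Pcgf2 was 1.66, against 3.33 for the widest peaks. At Bmi1, a gene required for neural stem cell self-renewal, the peak measured 3.10 kb after crotonate and 1.80 kb after water. It began at 18675756 on chromosome 2 after crotonate and at 18677053 after water, and the annotated start at 18677018 lies between these positions, 35 bp outside the water peak. The added stretch includes the CG-rich window printed above and reaches the neighbour Commd3. A further Bmi1 peak of 1.03 kb inside the gene was in the crotonate list only. Pcgf1 had 2.27 kb after crotonate and 1.71 kb after water. Pcgf3 had 3.33 kb after crotonate and 2.15 kb after water. Pcgf6 and Pcgf5 went the other way, with 1.42 and 2.13 kb after crotonate and 1.68 and 2.25 kb after water, although the covered length at Pcgf5 was higher after crotonate (3873 bp, against 3521 bp after water), where a new peak of 0.466 kb was added.

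Of the chromobox genes, which encode the readers of H3K27me3, Cbx7 ranked shortest of all members after water by its widest H3K4me3 peak. Its peak at the start measured 1.81 kb after crotonate and 0.809 kb after water, both inside the annotated gene, whose ends carried none. Cbx8 had 3.53 kb after crotonate and 2.39 kb after water, with a new peak of 0.878 kb at its other end, and Cbx6 had 2.73 kb after crotonate and 2.44 kb after water. Cbx2 was one of 4 members with a shorter peak after crotonate, 2.35 kb, against 2.61 kb after water. Polyhomeotic proteins join PRC1 into larger assemblies. At Phc1 a peak of 2.37 kb after crotonate replaced 2 water peaks of 1.11 and 0.705 kb. The ratio at Phc1 was 2.13 for the widest peaks, 1.30 by covered length and 3.36 with peaks of at least 5-fold enrichment alone. Phc3 hardly differed, with 1.70 kb after crotonate and 1.66 kb after water, and the widest peak of Phc2, inside the gene, had 3.70 kb after crotonate and 3.60 kb after water. At its gene end Phc2 had 1.84 kb after crotonate and 0.850 kb after water. Rybp and Yaf2, genes of related proteins of variant PRC1, had 2.77 and 1.21 kb after crotonate and 2.23 and 1.04 kb after water.

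Among the H3K4 methyltransferase genes, 3 of the 6 carried long H3K4me3 domains in both treatments. Kmt2a, Kmt2c and Kmt2d encode MLL enzymes and had 4.55, 4.16 and 4.62 kb after crotonate and 4.41, 3.93 and 4.48 kb after water, and Kmt2b had 3.38 kb after crotonate and 2.54 kb after water. The peaks of Kmt2a, Kmt2c and Kmt2d were in the longest 5% of each list, and that of Kmt2b was in neither. Setd1a and Setd1b encode the enzymes that place most H3K4me3. Setd1a had 3.00 kb after crotonate and 2.58 kb after water. Setd1b had the longest peak of all members after crotonate, 7.80 kb, which covered 4 water peaks of 1.77, 1.60, 1.03 and 0.625 kb. The first 2 of these overlap the neighbour Rhof, and the 4 water peaks ran over 6.58 kb from first to last with gaps of 1550 bp in sum. Measured from first to last water peak, the ratio at Setd1b was 1.18, and by covered length in its own windows it was 1.56, against 4.39 for the widest peaks.

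The remaining COMPASS genes had ratios of at most 1.31. Wdr5, Rbbp5, Ash2l and Dpy30, which encode the core shared by all COMPASS enzymes, had 2.88, 2.33, 2.62 and 1.43 kb after crotonate and 2.60, 1.80, 2.10 and 1.29 kb after water. Cxxc1, whose product binds unmethylated CG and brings in SET1, had 2.11 kb after crotonate and 1.88 kb after water. Men1, encoding the menin subunit that recruits MLL enzymes, had 3.01 kb after crotonate and 2.30 kb after water. At Ash2l and Dpy30 no peak lay within 2 kb of an annotated gene end in either treatment, and the H3K4me3 peaks lay inside the gene, as at Cbx7.

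Among the demethylase genes, Kdm5a, Kdm5b and Kdm5c, which remove H3K4me3, had 2.65, 3.14 and 2.61 kb after crotonate and 2.39, 2.58 and 2.08 kb after water. Kdm6a, which removes H3K27me3 and works within the MLL complexes, had 3.15 kb after crotonate and 3.14 kb after water. Kdm6b, the other H3K27 demethylase and one that signals can induce, had the most H3K4me3. Its gene and windows were covered over 12805 bp by 5 peaks after crotonate and over 8706 bp by 4 peaks after water. Its widest peak was 5.63 kb after crotonate, where 2 peaks of 1.22 and 2.87 kb lay after water, and 4.14 kb after water. The peak at its left end overlaps Tmem88, Naa38 and Cyb5d1.

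The peaks grew in 2 further ways that could be counted. A crotonate peak that joined 2 or more water peaks was present at 6 of 45 members (Setd1b, Pcgf2, Ring1, Phc1, Kdm6b and Kmt2d), against 4.74% of genes with H3K4me3 in both lists. The joined Kmt2d peak lies at the end shared with Prkag1. Peaks with no counterpart after water lay at 8 members (Phf1, Bmi1, Kdm6b, Pcgf2, Cbx8, Kmt2d, Dpy30 and Pcgf5), against 12.8% of all genes and 15.3% of those with H3K4me3 in both lists. These 10 peaks were 295 to 1030 bp long with a median of 489.5 bp, near the median of 469 bp over all 3371 such peaks of the list. Their median −log10 q was 5.33, against 57.5 for the whole crotonate list. A water peak with no counterpart after crotonate lay at 0 members, against 0.384% of all genes. A peak in the longest 5% of its list lay at 9 of 45 members after crotonate (Setd1b, Pcgf2, Ring1, Kdm6b, Jarid2, Kmt2d, Kmt2a, Phf1 and Kmt2c) and at 6 after water (Jarid2, Kmt2d, Kmt2a, Kdm6b, Kmt2c and Phc2), against 7.74% of genes with a peak after crotonate and 6.48% after water.

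**Figure D3:**
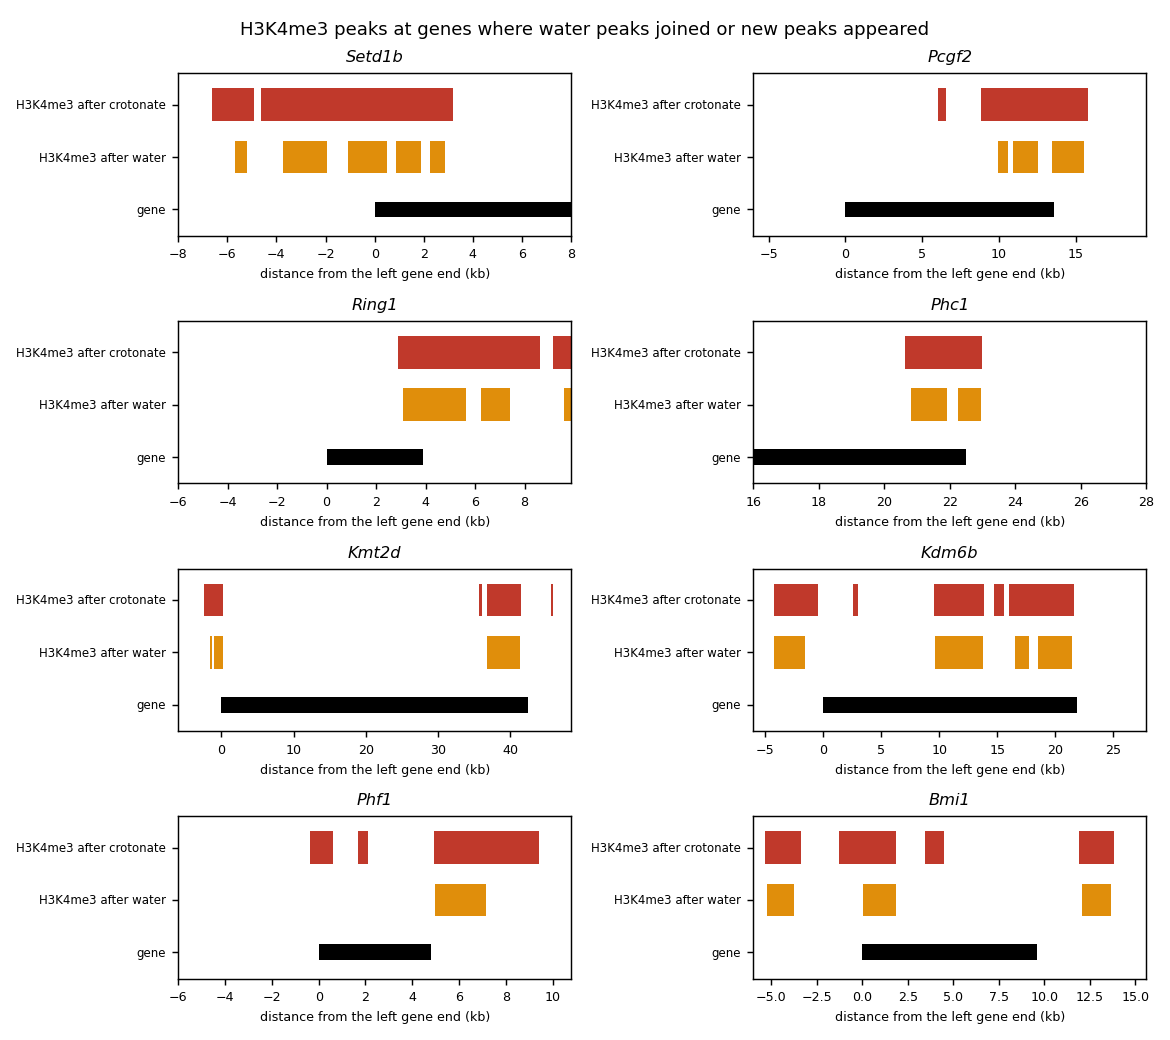
H3K4me3 peaks after crotonate (upper row) and after water (lower row) at 8 genes, with distance in kb from the left end of the gene (black bar). Single crotonate peaks cover 4 water peaks at Setd1b and 3 at Pcgf2, and Phf1 has peaks over its left end after crotonate only.

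For 32 members the annotated start lay in an H3K4me3 peak in both treatments, which allowed both edges to be measured from it. The median reach was 843.5 bp upstream and 1696.5 bp downstream after crotonate, and 723 bp upstream and 1397.5 bp downstream after water. The edge moved outward on the upstream side at 25 of 32 members (78.1%, against 87.6% of 9055 genes) and on the downstream side at 26 (81.2%, against 89.3%). The median shift, crotonate minus water, was 124.5 bp upstream and 295 bp downstream, against 145 bp upstream and 196 bp downstream over those genes. Downstream shifts of over 1 kb were seen at Rnf2, Phc1 and Cbx8 (1624, 1622 and 1020 bp). The crotonate peaks of Phc1 and Ring1 also covered a further water peak, while the reach after water stopped at the peak over the start. From first to last water peak, the ratio of lengths was 1.11 at Phc1 and 1.33 at Ring1. A shift inward by over 200 bp was seen at Pcgf6 alone of the 32, where the downstream reach was 1166 bp after crotonate and 1585 bp after water. The shares of the 9055 genes with shifts past these cutoffs were not counted.

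**Figure D4:**
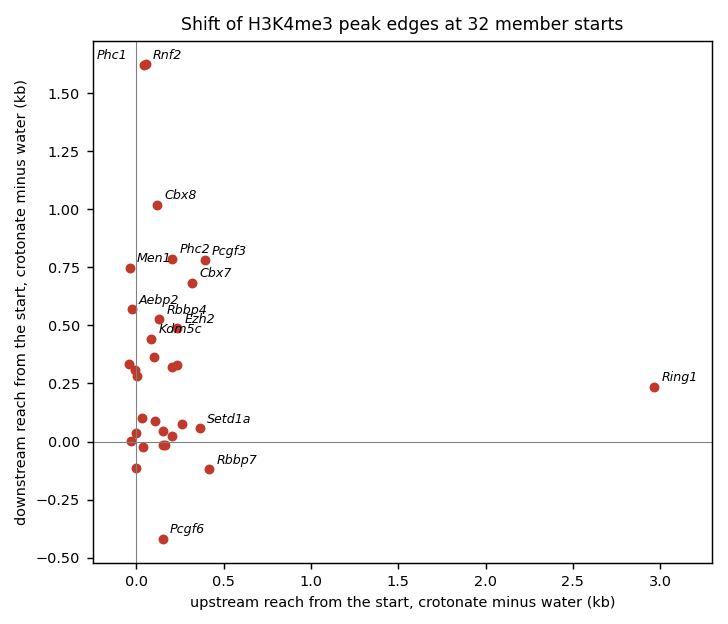
Shift of the edges of the H3K4me3 peak over the annotated start at 32 members, crotonate minus water, in kb, upstream on the horizontal and downstream on the vertical axis. Most points lie above and to the right of 0. Ring1 stands apart upstream (2968 bp) and Rnf2 and Phc1 downstream. At Ring1 and Phc1 the crotonate peak joined 2 water peaks, and the reach after water was taken from the one over the start.

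By complex, the median ratio was 1.33 for the 17 PRC1 genes, 1.17 for the 11 PRC2 genes, 1.14 for the 12 COMPASS genes and 1.22 for the 5 demethylase genes, around 1.25 for all genes. Ratios of 2 or more were found at 5 PRC1 genes, 1 PRC2 gene (Phf1) and 1 COMPASS gene (Setd1b), 7 of 45 members in all, against 7.55% of genes with H3K4me3 in both lists. By covered length in the gene and its windows, 2 of 45 members had such a ratio (Rnf2 and Bmi1), against 7.82% of these genes. Of the 4 members with a shorter widest peak after crotonate, 3 were PRC1 genes. Differences between the complexes were not tested. Within each list, the strongest H3K4me3 peak of the members by −log10 q had a median percentile of 72.8 after crotonate and 67.8 after water, against 65.2 after crotonate and 60.4 after water over all genes with a peak.

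The second comparison concerned H3K27me3. It was found at 6 of the 45 members after crotonate and at 5 after water, against 14.9% of all genes after crotonate and 11.0% after water. Among the genes with H3K4me3 in both lists the shares were 12.6% after crotonate and 10.0% after water. Within 2 kb of a gene end it lay at 6 members after crotonate (12.3% of all genes) and at 4 after water (9.45%). At the ends, 2 members were called after crotonate only (Pcgf2 and Pcgf3, against 3.19% of all genes) and 0 after water only (0.384%). The Pcgf2 stretch was called in both lists, and its edge lay 1.99 kb inside the left gene end after crotonate and 2.18 kb after water. The 6 members with H3K27me3 were Pcgf1, Pcgf2, Pcgf3, Pcgf5, Bmi1 and Cbx2. H3K27me3 lay at 5 of the 6 PCGF genes after crotonate and 4 after water, and at 1 chromobox gene in each. It lay at 0 of the 11 PRC2 genes and 0 of the 17 COMPASS and demethylase genes in either treatment. The members' counts are near those of all genes, and differences between the complexes were not tested. With a −log10 q or a fold enrichment of at least 5, the PCGF genes with H3K27me3 after crotonate were 3 (Bmi1, Pcgf1 and Pcgf2). The peaks counted at Pcgf1 are domains over its neighbours Dqx1, Tlx2 and Lbx2. The Pcgf3 peak had 47 bp in the window. The Pcgf5 peaks ranked at percentile 12.4 of the crotonate list and 20.1 of the water list.

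The strongest H3K27me3 lay beside Pcgf1 and centred on other genes. A domain of 20.1 kb after crotonate and 18.6 kb after water runs over Dqx1 and Tlx2 and ends inside Pcgf1, of which it covered 1113 bp after crotonate and 1123 bp after water. Tlx2 is a homeobox gene. A domain over the homeobox gene Lbx2 came within 2 kb of the other Pcgf1 end after crotonate, at 1722 bp from it, and its counterpart after water lay outside that window. The crotonate domains ranked at percentiles 99.9 and 98.4 of the crotonate list, above the other H3K27me3 peaks of the members.

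At Bmi1 the H3K27me3 peak lay wholly inside the H3K4me3 peak, downstream of the start. It ran from 18677763 to 18678750 after crotonate, with an authors' fold enrichment of 12.7, and from 18677763 to 18678851 after water, with 7.81. No correction for depth was made here to these fold values. The left edge fell on the same base in both lists. At Pcgf2, H3K27me3 covered 2.13 kb after crotonate and 2.33 kb after water across the left edge of the H3K4me3 domain, 269 bp from the annotated start after crotonate and 475 bp after water. A weaker stretch nearer the other end was called as 2 peaks of 1.56 and 1.36 kb after crotonate and as 1 peak of 2.78 kb after water. The shared length of the 2 marks at Pcgf2 was 1730 bp after crotonate and 404 bp after water.

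At Cbx2 an H3K27me3 peak ended 125 bp outside the left end of the gene after crotonate and 126 bp outside it after water, and measured 3.27 kb after crotonate and 3.51 kb after water. Its authors' fold enrichment was 4.65 after crotonate and 9.10 after water, at percentile 73.7 of the crotonate list and 78.8 of the water list, which differ in length. The deposited pileup went the other way, at 22.25 after crotonate and 17.2 after water. No correction for depth was made here to either value. At Pcgf5 weak H3K27me3 peaks of 0.611 kb after crotonate and 0.532 kb after water lay before the start, at 1179 bp after crotonate and 751 bp after water. Their percentiles were 12.4 in the crotonate list and 20.1 in the water list. Over the crotonate one lay the new H3K4me3 peak of 0.466 kb. Pcgf3 was the one member with H3K27me3 after crotonate only (4.24% of all genes; 0 members and 0.393% of all genes after water only). That peak of 1.22 kb, at 108458087 to 108459305 on chromosome 5, ended 1954 bp before the gene and so entered the 2 kb window by its last bases only. It was also the one member peak of this mark with no counterpart after water (9.35% of all genes had such a peak), and 0 members had one after water with none after crotonate (1.41%). Its fold enrichment was 4.36 and its −log10 q 4.47, and it was not counted with an overlap of 200 bp, a −log10 q or a fold enrichment of at least 5, or a window of 1 kb.

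**Figure D5:**
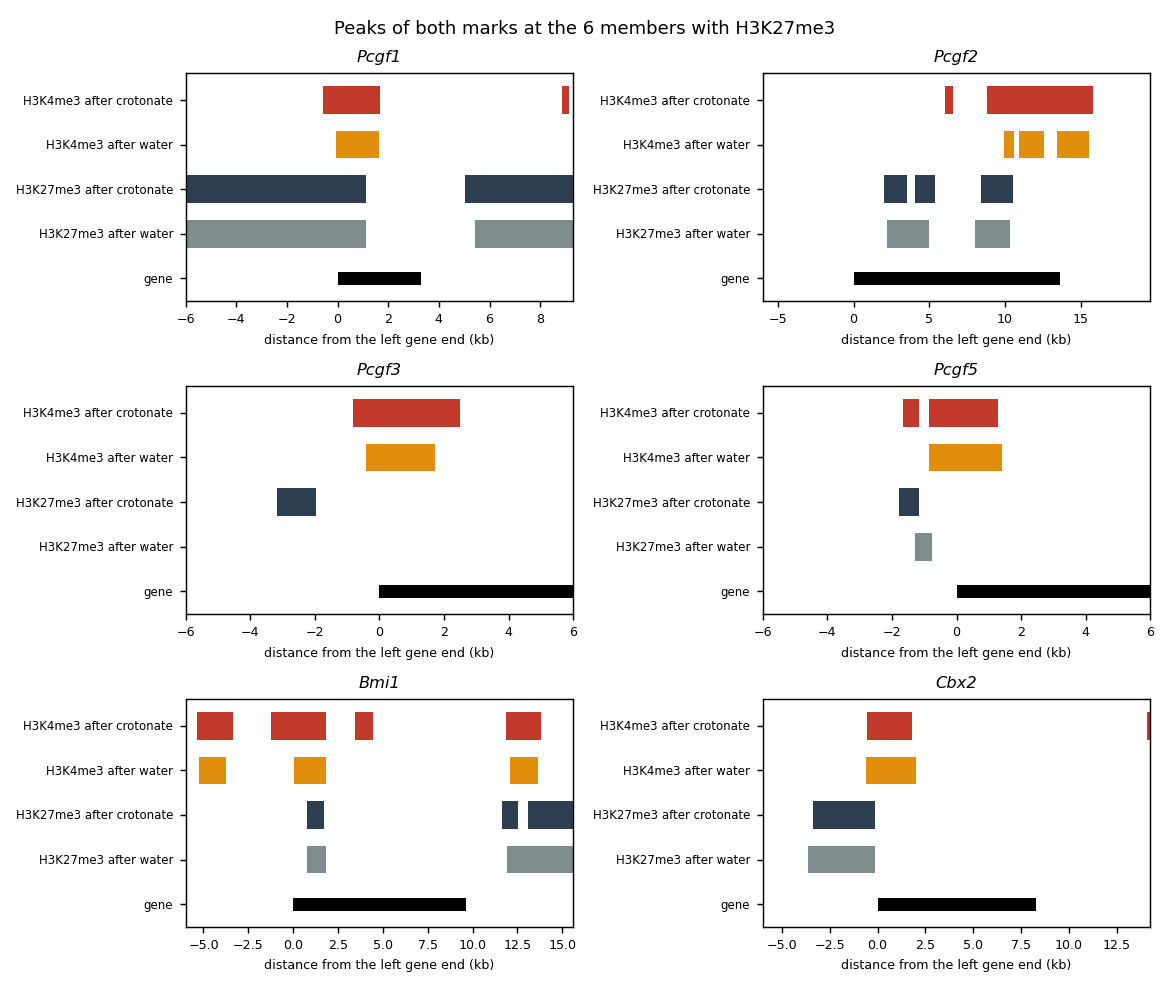
Peaks of both marks in both treatments at the 6 members with H3K27me3, with distance in kb from the left end of the gene (black bar; at Pcgf3 and Pcgf5 only the first 6 kb are drawn). H3K27me3 overlaps H3K4me3 in both treatments at 5 genes, and at Pcgf3 a peak of H3K27me3 is present after crotonate only, apart from H3K4me3.

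Of the 5 members with H3K27me3 in both lists, the widest peak was longer after crotonate at 2 (Pcgf1 and Pcgf5) and shorter at 3 (Bmi1, Pcgf2 and Cbx2), against 82.4% of 2326 genes that were longer. The median ratio was 0.931 for these 5 and 1.25 for all. By covered length in the gene and its windows the median for the 5 was 1.00, at Cbx2. The widest peaks at Pcgf2 are different stretches, across the H3K4me3 edge after crotonate and nearer the left gene end after water. Covered length at Pcgf2 was 5052 bp after crotonate and 5115 bp after water.

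The third comparison concerned both marks together. H3K4me3 and H3K27me3 peaks overlapped at 5 members after crotonate and at the same 5 after water, namely Bmi1, Pcgf1, Pcgf2, Pcgf5 and Cbx2. Over all genes the overlap was found at 7.05% after crotonate and 3.87% after water, and over genes with H3K4me3 in both lists at 8.70% after crotonate and 6.75% after water. With lists of equal length, and with a window of 1 kb, the overlap was found at 4 members after crotonate and 5 after water, and with a fold enrichment of at least 5 at 3 after crotonate and 4 after water. The overlap was 1690 bp after crotonate and 1184 bp after water at Pcgf1. It was 988 bp after crotonate and 1089 bp after water at Bmi1, 428 bp after crotonate and 455 bp after water at Cbx2, and 466 bp after crotonate and 97 bp after water at Pcgf5. At Pcgf3 the H3K27me3 peak lay 1138 bp from the nearest H3K4me3 peak.

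Other genes of these complexes were followed as a list of 84, of which 80 carried H3K4me3 after crotonate and 79 after water. Over all genes the shares were 61.5% after crotonate and 57.4% after water. H3K27me3 lay at 8 after crotonate and 7 after water, against 14.9% of all genes after crotonate and 11.0% after water, and both marks overlapped at 5 after crotonate and 4 after water, against 7.05% after crotonate and 3.87% after water. The widest H3K4me3 peak was longer after crotonate at 76 of 79, with a median ratio of 1.20. Over all genes with H3K4me3 in both lists it was longer at 95.4%, with a median ratio of 1.25. Epop, a PRC2 accessory gene on chromosome 11, carried both marks in both treatments, with H3K27me3 of 6.82 kb after crotonate and 6.99 kb after water, and H3K4me3 of 1.86 kb after crotonate and 1.06 kb after water. Sfmbt2, related to a Polycomb protein of the fly, had H3K27me3 of 12.0 kb after crotonate and 11.4 kb after water, and its H3K4me3 measured 3.21 kb after crotonate, when it reached the gene end, and 0.924 kb after water, when it did not. Bcor, a partner of PCGF1, had 13 H3K27me3 peaks after crotonate and 12 after water, the longest of 16.1 kb after crotonate and 11.1 kb after water, and reached a gene end after crotonate only. Ogt, encoding the enzyme that adds O-GlcNAc to proteins, had an H3K27me3 peak of 1.31 kb after crotonate and 0.356 kb after water.

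In that list H3K4me3 was called after crotonate only at 1 gene (4.11% of all genes), and H3K27me3 after crotonate only at 3 (4.24%) and after water only at 2 (0.393%). Scml4 gained H3K4me3 inside the gene, with a peak of 0.496 kb as the longest after crotonate, and had an H3K27me3 peak of 0.870 kb after water only. Phf8, an H3K9 and H4K20 demethylase gene, had H3K27me3 of 0.348 kb after water only. Scml2, Arid1b and Actl6b had H3K27me3 after crotonate only, over 1.09, 0.996 and 0.994 kb at most. Actl6b encodes the neuronal BAF subunit that replaces Actl6a when progenitors leave the cell cycle. It had no H3K4me3 in either treatment, like Ezhip, L3mbtl4 and Kdm5d. Kdm5d lies on the Y chromosome, where Uty had H3K4me3 of 0.711 kb after crotonate and 0.307 kb after water. Auts2, a partner of variant PRC1 in neurons, had 11 H3K27me3 peaks inside the gene after crotonate and 3 after water, but the widest measured 2.03 kb after crotonate and 4.44 kb after water. Its H3K4me3 measured 4.50 kb after crotonate and 3.97 kb after water. The 8 PR-DUB genes, for the complex that removes ubiquitin from H2A, carried H3K4me3 in both treatments and no H3K27me3.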

How the data were processed

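CUT&Tag peak lists of 4 libraries were used, 1 per mark and treatment. Per the submitters' processing notes, MACS2 2.2.7.1 and Bowtie2 2.4.1 were used with GRCm38, beside Picard 2.22.0 and SAMtools 1.10. Settings, duplicate removal and background: not given in the sources used here; 1 list stands for each library. The deposited pileup is a signal read at each summit and scaled by the caller. Significance was deposited as −log10 of p and of q, and fold enrichment a ratio of summit signal to local background, both per the file headers. These are the authors' values and served for description, ranking or filtering inside 1 list. Fold enrichment at Bmi1 and Cbx2 is printed for both lists, with no correction for depth. List length and peak length depend on depth.

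Peaks were assigned to RefSeq GRCm38.p6 gene spans with Python 3.11.15, numpy 2.4.6 and pandas 2.3.3, and figures were drawn with matplotlib 3.10.9. The overlap code was tested on simulated peaks and gave the same gene counts as bedtools 2.31.1. Starts came from the RefSeq promoter table. Relative depth was estimated from the step between pileup values (whole multiples within 0.006) and the lowest local background per base of the shortest peak, reading fold enrichment as a ratio with 1 added to both parts, which the headers do not state. The members and lists were chosen with earlier results of these data known. Named were all members with H3K27me3, with a gain or loss, or among the 5 widest, 5 narrowest, 5 most and 5 least lengthened H3K4me3 peaks, and, of the related genes, those with H3K27me3, a gain or a loss at their ends; other related genes and the sequences shown were chosen after their values were seen. With 1 library per group no test was possible. Alternatives changed the peaks kept, the window, the overlap, the place counted and the measure of length.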

Additional observations from a re-analysis of the deposited data

How the results depend on the processing

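Counts of members with H3K4me3 stayed within 1.5 times under every alternative run, except that Phf1 counted as called after crotonate only when the annotated start alone was used (1 member). H3K27me3 counts rested on few and partly weak peaks. With lists of equal length, 1 member (Pcgf5) had H3K27me3 after water only, 4 had both marks after crotonate and 5 after water, and 1 had a longer peak after crotonate. With −log10 q of at least 5, 0 members had H3K27me3 after crotonate only, 1 had a longer peak, and of the related genes 5 had H3K27me3 after crotonate and 4 after water, and 3 had both marks after crotonate. With fold enrichment of at least 5, H3K27me3 was called at 3 members after crotonate, 0 after crotonate only and 1 (Cbx2) after water only; 3 had both marks after crotonate and 4 after water, 3 had it in both lists with 1 longer, and 4 related genes had it after water. A 1 kb window left 0 members after crotonate only and 1 (Pcgf5) after water only, and an overlap of 200 bp left 0 after crotonate only. At gene ends alone Pcgf2 joined Pcgf3, giving 2 after crotonate only, although that Pcgf2 stretch was called in both lists. At annotated starts, 3 members had H3K27me3 after water, and both marks were found at 3 after crotonate and 3 after water.

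By covered length the median H3K27me3 ratio was 1.0005, that of Cbx2, in place of 0.931, and the H3K4me3 ratio turned at Kmt2a (0.996) and Pcgf5 (1.1); covering is cut at the window. The median H3K4me3 ratio stayed above 1 in each alternative. No paired analysis was possible because each group has 1 library, which also leaves no replicate to leave out. The lists differ in depth, whose part in these counts was not tested.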
